A study of Mus musculus with 46 samples.

Results

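Complete responders (CR) and progressors (PR) were compared in the 10 tumors that were removed 3 days after cyclophosphamide (CY), 5 of each kind, out of 46 sequenced tumors. The members were taken by the day given in the labels and by the response given in the labels, without use of expression. All tumors were AB1-HA mesotheliomas, grown under the skin of male BALB/c mice aged 8 to 10 weeks. AB1-HA is a line of mouse mesothelioma cells that carries an influenza hemagglutinin transgene, so each tumor was a transplant of the same line. Each mouse bore a pair of tumors and received a single dose of 200 mg/kg CY on day 10 after inoculation. The tumors described here were surgically removed and frozen on day 13, and the fate of the tumor left on the same mouse gave the response. The labels call the second group partial responders, whereas the study's methods call the same mice progressors. All 10 mice had received CY, and no untreated tumor of that age was among the 46 samples. The other tumors had been removed 1 day before CY (13 CR and 13 PR) or 7 days after it (5 CR and 5 PR). Each mouse gave 1 of these tumors, which are named CR1 to CR5 and PR1 to PR5 in the order of the samples.

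CY is a prodrug that the liver turns into a DNA-alkylating agent. It kills dividing cells, tumor cells and lymphocytes among them, and dying tumor cells can release antigens and danger signals that dendritic cells and macrophages take up. Natural killer cells and cytotoxic T cells kill tumor cells with perforin and granzymes, and interferon gamma from these cells raises the antigen-presenting molecules on their neighbours. A bulk tumor library mixes the RNA of tumor cells, infiltrating leukocytes, stroma, vessels and whatever skin, muscle or fat came away with the tumor, so that fewer cells of a type and less RNA per cell cannot be told apart.

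RNA was measured as read counts per gene. The 10 libraries held 15412744 to 18748688 counts each, with 16551192 to 17675991 in PR inside the range of CR, and their normalisation factors ran from 0.989 to 1.01. The libraries of day -1 were shallower, at 10227681 to 14218987 counts, and those of day 7 held 16047930 to 19446596 counts. No library was a copy of another: over 45 pairs the chi-square per degree of freedom of the counts was at least 7.99. Msln, mesothelin, the surface protein that marks mesothelial cells and many mesotheliomas, was present at 322 to 448 CPM (the count scaled to a common library total) in CR and 357 to 473 CPM in PR. Most other mesothelial markers were near 0. Of 12 such genes listed, 10 were in the table and only 3 had enough counts to be tested. Among the rest, Bnc1 reached 1.51 CPM, and Krt19, Krt18, Lrrn4 and Calb2 at most 0.605, 0.469, 0.466 and 0.504 CPM. The table ends within the entry for Pax7 and held 64.0% of the protein-coding gene names of the annotation, so that a gene missing from it was not analysed here.

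No gene differed between CR and PR 3 days after CY in the test that was set as the main one. edgeR's quasi-likelihood test with Benjamini-Hochberg adjustment was fitted to 11839 genes and called 0 genes (0%) at a false discovery rate (FDR) of 0.1, with a smallest adjusted p of 0.99998. At an unadjusted p under 0.05, 152 genes (1.28%) were higher in CR and 104 (0.878%) were lower, 256 in all (2.16%). All 5 CR tumors lay above all 5 PR tumors for 26 genes (0.22%), and all 5 PR tumors lay above all 5 CR tumors for 17 genes (0.144%). These percentages are the background for every count of genes below. The 2.16% lay below the share of 0.05 that such a threshold passes when no gene differs. Under random labels a gene separates 5 from 5 tumors, in either direction, with a probability of 0.00794. A smaller share did so here, 43 of 11839 genes. limma-voom with quality weights called 0 genes, with 333 at an unadjusted p under 0.05, and DESeq2 called 3 genes, all gene models at the ends of the sex chromosomes that are described last. Without CR1, the quasi-likelihood test called 1 gene, Ckm.

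The intervals show which sizes of difference in a single gene are compatible with these 10 tumors. They are not adjusted over the genes, so they are narrower than the limit for a call. Log2 fold changes of 0.91 for Ckm and 1.15 for Cfd, for example, were not called. The median standard error of a log2 fold change was 0.113, and the median 95% interval reached 0.246 to each side. For 10809 genes (91.3%) the interval lay within a 2-fold difference in either direction, which is 1 on the log2 scale, and for 8422 genes (71.1%) it lay within a 1.5-fold difference. Log2 fold changes are given as CR against PR throughout, and their median over all tested genes was -0.0013, with quartiles of -0.055 and 0.061. Fitted alone, the 10 tumors of day 3 spread less than those of the other days, with a common biological coefficient of variation of 0.144, against 0.169 in the 26 tumors of day -1 and 0.202 in the 10 tumors of day 7. The corresponding median standard errors were 0.113 at day 3, 0.0743 at day -1 and 0.157 at day 7. In fits of the same form, 17.5% of genes at day -1 and 2.84% at day 7 had an unadjusted p under 0.05, with 1 gene and 0 genes called by edgeR's quasi-likelihood test.

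No leading axis of variation separated CR from PR in the test used. Principal components were taken from the 1000 most variable genes. Component 1 held 21.98% of the variance, and its scores were 2.71 ± 10.9 (SD, n = 5) in CR and -2.71 ± 16.2 (SD, n = 5) in PR. In a two-sided exact permutation test over every assignment of 5 tumors to CR, which can give no p below 0.00794, the exact p was 0.579 for component 1, 0.373 for component 2 and 0.111 for component 3, or 0.579, 0.560 and 0.333 adjusted over the 3. PR1 at -28.6 and CR1 at -16.6 were the lowest tumors on component 1, so the tumors at the far end came from both groups. The genes that led component 1 were skin genes (Dmkn, Krt5, Dsp, Krt10, Cdsn and Krt15), and those that led component 2 included Krt8 and Cxcl9. Krt5, Dmkn, Dsp and Krt15 were also among those that led component 3, where CR1 stood at 20.1 and PR1 at -9.98.

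**Figure D1:**
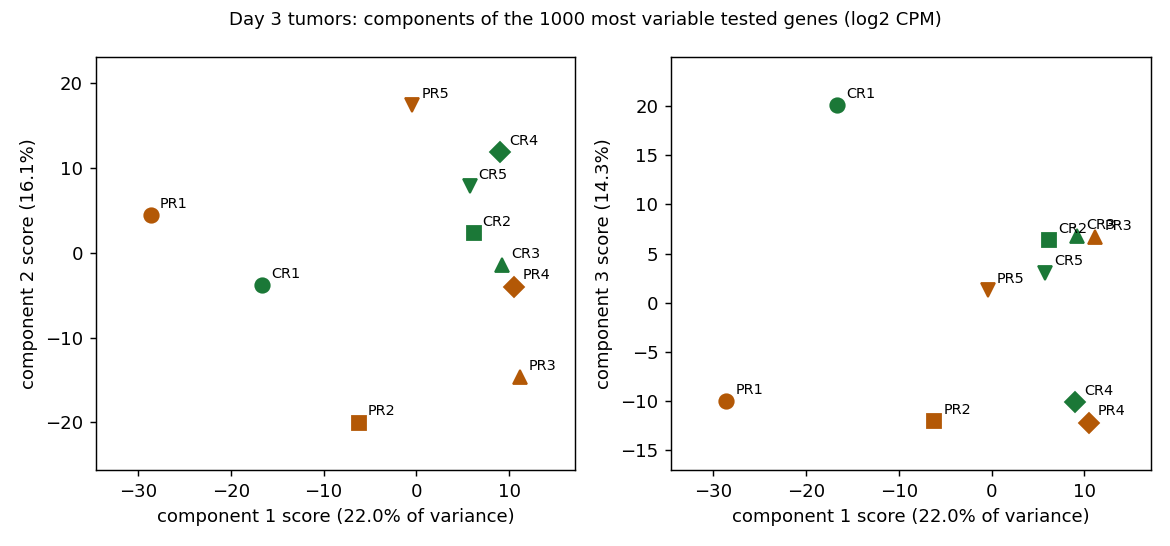
Scores of the 10 tumors of day 3 on principal component 1 (horizontal axes) against component 2 (left) and component 3 (right), from log2 CPM of the 1000 most variable genes, 1 labelled point per tumor, CR green and PR brown. PR1 (-28.6) and CR1 (-16.6) lie apart from the other 8 tumors on component 1, and on component 2 the highest (PR5) and the lowest (PR2) tumor are both PR.

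The genes with the smallest p-values in each direction were taken as the leading genes, 15 higher and 15 lower in CR. Gene models with provisional names were left out of this choice. Since the genes were picked by that p, their values are a description, and none passed the adjustment. Those higher in CR held several genes of skeletal muscle and fat, and those lower in CR several genes of the skin. The 5 of 15 higher genes whose groups did not overlap were Invs, Cdo1, Clec3b, Ccdc60 and Dhtkd1, and the 3 of 15 lower genes were Clic3, Cd3eap and Dnah2.

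The regulatory sequence just upstream of a muscle gene (Ckm), a fat gene (Cfd) and a skin gene (Krt5) is given here, because these 3 genes carry the tissue pattern described next. Each run is the 250 bases before the gene's start in RefSeq (GRCm38.p6), 5′ to 3′ on the gene's strand, and capitals mark the core CAGCTG of an E-box, the letters bound by muscle factors such as MyoD and by other basic helix-loop-helix proteins.
Ckm, chr7:19410844-19411093, plus strand: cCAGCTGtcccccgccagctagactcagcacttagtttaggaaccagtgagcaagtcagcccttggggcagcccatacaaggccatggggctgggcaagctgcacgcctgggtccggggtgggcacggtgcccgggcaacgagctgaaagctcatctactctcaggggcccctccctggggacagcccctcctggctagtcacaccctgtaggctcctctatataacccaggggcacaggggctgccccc
Cfd, chr10:79890603-79890852, plus strand: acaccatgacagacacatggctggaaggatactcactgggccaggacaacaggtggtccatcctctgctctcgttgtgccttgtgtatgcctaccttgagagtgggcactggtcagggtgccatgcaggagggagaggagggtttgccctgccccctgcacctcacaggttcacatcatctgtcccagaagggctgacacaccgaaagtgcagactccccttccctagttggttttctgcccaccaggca
Krt5, chr15:101712906-101713155, minus strand: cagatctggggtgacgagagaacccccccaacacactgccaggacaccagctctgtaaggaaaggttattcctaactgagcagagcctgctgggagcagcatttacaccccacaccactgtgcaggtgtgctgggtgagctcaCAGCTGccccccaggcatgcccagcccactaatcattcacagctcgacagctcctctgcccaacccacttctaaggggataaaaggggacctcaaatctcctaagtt
CAGCTG reads the same on both strands. It began 249 bases upstream of the start in Ckm and 107 bases upstream in Krt5, and was not in the window of Cfd. Of 32851 RefSeq promoter entries in the same window, 13% held it, as did 9 of the 13 found for tested genes of the skeletal muscle list, 1 of 4 of the fat cell list and 3 of 6 of the keratinocyte list. It was absent from the window of Mybpc2, another leading muscle gene. The MEF2 box (CTA and TAG with 4 letters A or T between them) was in 0 of the 13 muscle promoters and in 0.508% of all promoters. The letters TATAAA, searched on both strands, were in none of the 3 sequences and in 12.4% of all promoters. Among list promoters they were in 4 of 13 for skeletal muscle, 0 of 4 for fat cells and 2 of 6 for keratinocytes. Only that exact run was counted, so near forms were left out, such as the tatataa close to the end of the Ckm sequence. The start of Ckm in RefSeq lies inside the longer Ensembl gene named below.

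Among genes of fat, Cfd, which encodes adipsin, the fat-cell serine protease that is also complement factor D, stood at 23.6, 35.8, 38.1, 55.5 and 39.2 CPM in CR1 to CR5 and 12.7, 9.09, 21.6, 17.1 and 26.1 CPM in PR1 to PR5. PR5 reached above CR1, and the other 4 CR tumors lay above all PR tumors (log2 fold change 1.15, SE 0.27, 95% interval 0.56 to 1.74). Car3, carbonic anhydrase 3, abundant in fat and slow muscle, was at 33.8, 57.04, 66.6, 110.03 and 71.5 CPM in CR1 to CR5 and 23.8, 36.5, 36.1, 32.3 and 47.9 CPM in PR1 to PR5 (log2 fold change 0.94, SE 0.26). Cdo1, cysteine dioxygenase, which breaks down cysteine and is well expressed in liver and fat, was at 4.701, 5.43, 5.101, 5.99 and 5.26 CPM in CR1 to CR5 and 3.57, 4.37, 3.75, 2.76 and 2.81 CPM in PR1 to PR5. Its groups did not overlap, although the levels were low (log2 fold change 0.62, SE 0.15, 95% interval 0.29 to 0.94). Of 10 genes in the fat cell list, 8 were in the table and 7 were tested, 7 were higher in CR, 5 of them at an unadjusted p under 0.05, and their median log2 fold change was 0.80. Those 5 were Cfd, Car3, Adipoq (adiponectin), Cidec (a coat protein of the fat droplet) and Lep (leptin). Adipoq stood at 6.32, 12.04, 16.1, 25.2 and 16.4 CPM in CR1 to CR5 and 5.32, 10.7, 9.45, 8.87 and 11.1 CPM in PR1 to PR5, so that CR1 lay among the PR tumors. The per-tumor score of the list, its mean centered log2 CPM, ran from -0.33 to 0.90 in CR and from -0.76 to -0.12 in PR, and the groups overlapped through CR1. The list's median was 0.57 without CR4, the tumor with the highest score, and 0.96 without CR1, and it was 0.21 with the keratinocyte and skeletal muscle scores as covariates.

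For skeletal muscle genes, as for fat genes, CR4 had the highest score and CR1 the lowest among CR tumors. Ckm, the creatine kinase of muscle, was at 21.5, 44.5, 53.9, 65.4 and 43.2 CPM in CR1 to CR5 and 23.97, 23.2, 22.6, 22.7 and 29.2 CPM in PR1 to PR5. CR2 to CR5 lay above every PR tumor, and CR1 lay below every PR tumor (log2 fold change 0.91, SE 0.22, 95% interval 0.42 to 1.39). Without CR1 its log2 fold change was 1.09 and its adjusted p 0.0356 in edgeR's quasi-likelihood test. Mybpc2, the myosin-binding protein C of fast fibers, was at 22.4, 32.2, 39.6, 46.5 and 35.9 CPM in CR1 to CR5 and 21.9, 27.03, 24.8, 20.5 and 20.2 CPM in PR1 to PR5 (log2 fold change 0.63, SE 0.16, 95% interval 0.27 to 0.98). Mylk2, the light chain kinase of skeletal muscle, and Cmya5, myospryn, a large protein near the Z-disc, ran from 6.05 to 9.71 and 10.1 to 18.98 CPM in CR against 4.05 to 6.66 and 7.45 to 10.6 CPM in PR (log2 fold changes 0.61 and 0.60). In the skeletal muscle list 14 of 15 tested genes were higher in CR, 4 of them at an unadjusted p under 0.05 (Ckm, Mybpc2, the calcium pump Atp2a1 and the fast myosin heavy chain Myh4), with a median of 0.33. Its score ran from -0.76 (CR1) to 0.71 (CR4) in CR and from -0.30 to 0.07 in PR. The median was 0.12 without CR4 and 0.52 without CR1, so its size depended on single tumors, and it was -0.29 with the fat cell score as a covariate.

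Skin genes gave the largest differences, and 1 tumor carried most of their size. Krt5, the keratin of basal keratinocytes, was at 0.378, 0.589, 0.235, 0.315 and 0.941 CPM in CR1 to CR5 and 189.9, 2.19, 0.242, 3.76 and 1.32 CPM in PR1 to PR5. PR1 stood far above the rest, 3 other PR tumors lay above every CR tumor, and PR3 lay among them (log2 fold change -6.30, SE 1.78, 95% interval -10.17 to -2.42). Without PR1 the log2 fold change was -1.91. Dmkn, dermokine, secreted by the upper epidermis, was at 0.2702, 0.262, 0.528, 0.252 and 1.16 CPM in CR1 to CR5 and 95.9, 9.84, 0.121, 0.764 and 2.01 CPM in PR1 to PR5 (log2 fold change -5.41, and -2.65 without PR1). Krt15, another basal keratin, reached 32.2 CPM in PR1 and at most 2.76 CPM in any other tumor (log2 fold change -4.06, and -1.43 without PR1). Krt10, the keratin of the suprabasal layers, was at 3.13, 2.55, 2.64, 3.59 and 4.37 CPM in CR1 to CR5 and 139.6, 17.03, 1.696, 1.88 and 5.67 CPM in PR1 to PR5, so that PR3 and PR4 lay below every CR tumor (log2 fold change -3.34, and -1.01 without PR1). Dsp, desmoplakin of the desmosome, and Cdsn, corneodesmosin of the outer skin layers, reached 73.8 and 29.4 CPM in PR1 and at most 3.34 and 1.73 CPM in the other tumors. Without PR1 their log2 fold changes were -1.11 and -0.36, against -4.68 and -3.20 with it.

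Of 21 keratinocyte genes in the table, 8 passed the filter on low counts, Krt5 for example through 4 PR tumors and CR5, so a direction was built into their selection. All 8 were lower in CR, 6 at an unadjusted p under 0.05, and the median was -2.47, or -0.62 without PR1. Among those that were not tested, Krt14, the partner of Krt5, reached 259 CPM in PR and at most 0.653 CPM in CR. The summed level of the 8 tested genes was 105 to 138 CPM in CR, 111 to 151 CPM in PR2 to PR5 and 809 CPM in PR1. The amount of skin, muscle and fat in each resected piece was not recorded in the labels, and its part in these differences was not tested.

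**Figure D2:**
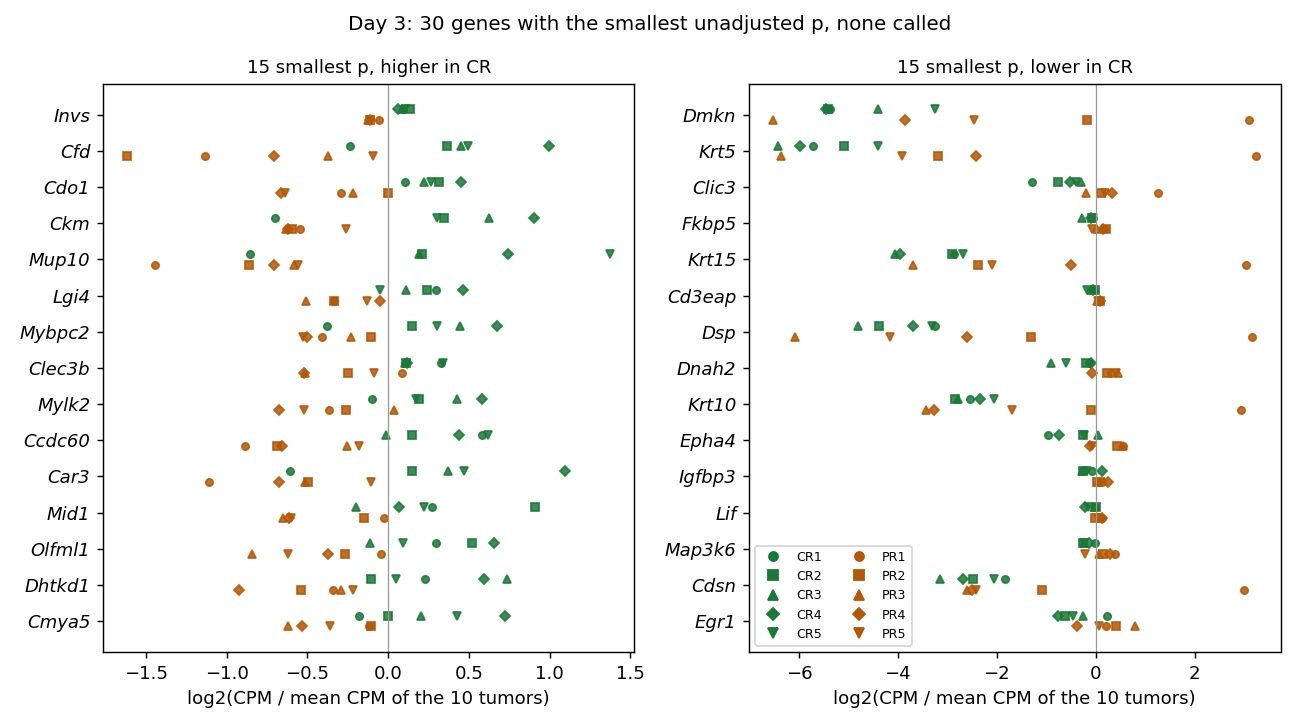
The 15 leading genes higher in CR (left) and the 15 lower in CR (right) in each tumor of day 3, as log2 of the CPM over the mean CPM of the 10 tumors, with CR points in green, PR points in brown and a marker shape for each tumor. For Cfd, Ckm and Car3 the CR points lie to the right except CR1, and for Dmkn, Krt5, Krt15, Dsp, Krt10 and Cdsn PR1 lies far to the right of the other 9 tumors. The axes of both panels differ in range.

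The remaining genes higher in CR were not in the fat, muscle or keratinocyte lists. Invs, inversin, a protein of the primary cilium, was at 36.8, 38.01, 36.8, 36.1 and 37.2 CPM in CR1 to CR5 and 33.3, 32.04, 31.7, 32.02 and 32.02 CPM in PR1 to PR5. The groups did not overlap, and the difference was small (log2 fold change 0.20, SE 0.046, 95% interval 0.098 to 0.30). Clec3b, tetranectin, a plasminogen-binding protein of plasma and stroma, was at 36.5, 31.4, 31.3, 31.5 and 36.9 CPM in CR1 to CR5 and 30.9, 24.6, 20.4, 20.3 and 27.4 CPM in PR1 to PR5 (log2 fold change 0.44, SE 0.12). Dhtkd1, a mitochondrial enzyme of lysine breakdown, and Ccdc60, a coiled-coil protein, also separated the groups, but at levels of 1.24 to 2.23 and 0.645 to 0.996 CPM in CR and 0.705 to 1.15 and 0.351 to 0.573 CPM in PR. Lgi4, a secreted protein that Schwann cells need to make myelin, ran from 9.74 to 13.9 CPM in CR against 7.09 to 9.75 CPM in PR. Olfml1, of the olfactomedin-like family, had a log2 fold change of 0.71 (SE 0.20). Mup10 was at 17.8, 37.2, 36.8, 53.8 and 83.4 CPM in CR1 to CR5 and 11.8, 17.7, 21.5, 19.7 and 21.8 CPM in PR1 to PR5 (log2 fold change 1.31, SE 0.33), but the major urinary proteins are a family of near-identical copies whose reads cannot be assigned with certainty.

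Among those lower in CR, Clic3, an intracellular chloride channel protein, was at 0.594, 0.8504, 1.17, 1.01 and 1.11 CPM in CR1 to CR5 and 3.45, 1.55, 1.27, 1.82 and 1.66 CPM in PR1 to PR5. Every PR tumor lay above every CR tumor, by little except in PR1 (log2 fold change -1.04, SE 0.30, 95% interval -1.68 to -0.40). Cd3eap, a subunit of RNA polymerase I despite its name, was at 51.6 to 57.6 CPM in CR and 59.3 to 61.98 CPM in PR (log2 fold change -0.14, SE 0.043). It overlaps the repair gene Ercc1 on the other strand, and whether the counting used strand was not given in the sources used here. Dnah2, a heavy chain of axonemal dynein, was at 0.762 to 1.32 against 1.35 to 1.94 CPM (log2 fold change -0.63). Egr1, an immediate early transcription factor, was at 150.4, 83.5, 109, 76.3 and 93.4 CPM in CR1 to CR5 and 148, 172, 223, 99.6 and 135 CPM in PR1 to PR5. Its groups overlapped, with CR1 above 3 PR tumors (log2 fold change -0.60, SE 0.21, 95% interval -1.07 to -0.13). Fkbp5, a co-chaperone that glucocorticoids induce, ran from 187 to 220.03 CPM in CR and 218 to 264 CPM in PR. Lif, a cytokine of the interleukin 6 family, had a log2 fold change of -0.16 (SE 0.056), and Igfbp3, which binds insulin-like growth factors, one of -0.23 (SE 0.079). Epha4, an ephrin receptor, and Map3k6, a stress kinase, had log2 fold changes of -0.68 and -0.32, and both overlapped between groups.

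The places of the leading genes in the genome (GRCm38, GENCODE M21) were chr4:48279760-48431954 for Invs, chr10:79890853-79892655 for Cfd, chr7:19404776-19422841 for Ckm, chr7:44501699-44524656 for Mybpc2, chr15:101707070-101712898 for Krt5, chr7:30763756-30781063 for Dmkn and chr2:25456838-25458776 for Clic3. All 7 are protein-coding genes, and the table gives 1 count for each gene.

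Genes of 52 lists that fit the tumor and the drug were then read, 853 genes of them in the table and 723 tested. Of these 365 were higher in CR, 15 at an unadjusted p under 0.05, and 12 were lower at that level, read beside the background of 1.28% and 0.878%. Of the 15, 5 were fat and 4 were muscle genes, and 6 of the 12 were skin genes. No list had a per-tumor score that separated the groups.

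T cell genes showed no difference past the test. Of 17 tested, 14 were higher in CR, 0 at an unadjusted p under 0.05, with a median log2 fold change of 0.087, which was -0.014 without CR4 and -0.024 without PR3. Cd3e, one of the CD3 signalling chains, was at 3.84, 5.299, 3.87, 6.37 and 6.09 CPM in CR1 to CR5 and 4.85, 3.22, 2.301, 4.58 and 4.53 CPM in PR1 to PR5. The highest 3 CR tumors lay above all PR tumors and the others among them (log2 fold change 0.38, SE 0.22, 95% interval -0.11 to 0.87). Cd8a, the coreceptor of cytotoxic T cells, was at 3.46, 7.33, 6.45, 11.3 and 9.63 CPM in CR1 to CR5 and 8.71, 2.42, 2.06, 4.35 and 10.1 CPM in PR1 to PR5 (log2 fold change 0.46, SE 0.44, 95% interval -0.48 to 1.41). The genes of cytotoxic cells had a median of 0.029 over 16 tested genes, those of natural killer cells 0.13 over 8, those of regulatory T cells 0.15 over 8 and those of checkpoint receptors and ligands 0.039 over 10, with 0 genes of any of the 4 at an unadjusted p under 0.05. Among these 4 lists only the median of regulatory T cell genes kept its sign when each tumor was left out. Without PR3 it was -0.13 for cytotoxic cells, -0.027 for natural killer cells and -0.071 for checkpoints, and it also turned without CR4 for cytotoxic cells (-0.099) and for checkpoints (-0.056), and without CR5 for checkpoints (-0.014). With the fat cell score as a covariate, chosen after seeing the data, the medians were -0.19 for T cells, -0.19 for cytotoxic cells, -0.20 for natural killer cells and -0.38 for checkpoints. Ifng, interferon gamma, had a log2 fold change of -0.28 (95% interval -1.09 to 0.54), and Foxp3, the factor that defines regulatory T cells, 0.17 (-0.18 to 0.52). Ctla4, the checkpoint receptor, had a log2 fold change of 0.060 (-0.34 to 0.46).

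These intervals were wide. Of the 17 T cell genes, 16 had a 95% interval within a 2-fold difference and 5 within a 1.5-fold difference. Of the 16 cytotoxic genes, 13 and 3 did. For general leukocyte genes, which are read from more counts, 22 of 22 lay within a 2-fold and 21 within a 1.5-fold difference, and their median was 0.056. The summed level of the tested T cell genes was 115 to 211 CPM in CR and 94.0 to 211 CPM in PR, and that of the leukocyte genes 3343 to 4070 CPM in CR and 3148 to 4300 CPM in PR. A 2-fold difference in leukocyte genes was thus outside these intervals, whereas a 1.5-fold difference in single T cell genes was mostly inside them.

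Myeloid genes gave no call either. Macrophage genes had a median of 0.048 (16 of 22 higher in CR), dendritic cell genes 0.041 (13 of 18), and none of these passed an unadjusted p of 0.05. Adgre1, the F4/80 antigen of macrophages, had a log2 fold change of 0.098 (95% interval -0.17 to 0.36) and Flt3, the receptor for the growth factor of dendritic cells, -0.066 (-0.43 to 0.30). Mast cell genes were lower in CR for all 10 tested, with a median of -0.21 and 0 at an unadjusted p under 0.05. B cell genes had a median of -0.049 over 11 genes. In the complement list 15 of 17 genes stood higher in CR (median 0.10), 2 of them at an unadjusted p under 0.05, Cfd and C5ar1, the receptor for the fragment C5a, at 48.6 to 61.6 CPM in CR and 40.9 to 56.6 CPM in PR (log2 fold change 0.23).

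For MHC class II and interferon gamma targets most genes were lower in CR without passing the test, and both medians turned above 0 without PR5. MHC class II genes, whose products show antigen to helper T cells, were lower in CR for 9 of 10 tested genes, with a median of -0.24 and 0 at an unadjusted p under 0.05. The median ran from -0.41 to 0.12 when tumors were left out in turn, and was above 0 without PR5, as it was (0.03) with PR1 and CR1 both left out, a setting chosen after seeing the data. Cd74, the invariant chain, was at 431, 548, 471, 978 and 472 CPM in CR1 to CR5 and 941, 373, 249, 527 and 1347 CPM in PR1 to PR5. The spread within PR, from PR3 to PR5, exceeded the difference between groups (log2 fold change -0.25, SE 0.40, 95% interval -1.12 to 0.63). None of the 10 intervals lay within a 1.5-fold difference and 5 lay within a 2-fold difference. Interferon gamma targets had a median of -0.13, with 3 of 28 higher in CR and 0 at an unadjusted p under 0.05, and this median was 0.15 without PR5 and 0.0017 with PR1 and CR1 both left out. Cxcl9, the chemokine that draws activated T cells, was at 39.6, 148, 74.8, 188 and 60.1 CPM in CR1 to CR5 and 190.3, 45.7, 37.6, 94.4 and 382 CPM in PR1 to PR5 (log2 fold change -0.56, SE 0.61). The median of the type I interferon list was 0.0028, with all 34 intervals inside a 1.5-fold difference. MHC class I genes had a median of 0.013 over 12 genes, 7 of them higher in CR, and the sign of that median turned without CR2, CR4, PR2 or PR3.

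**Figure D3:**
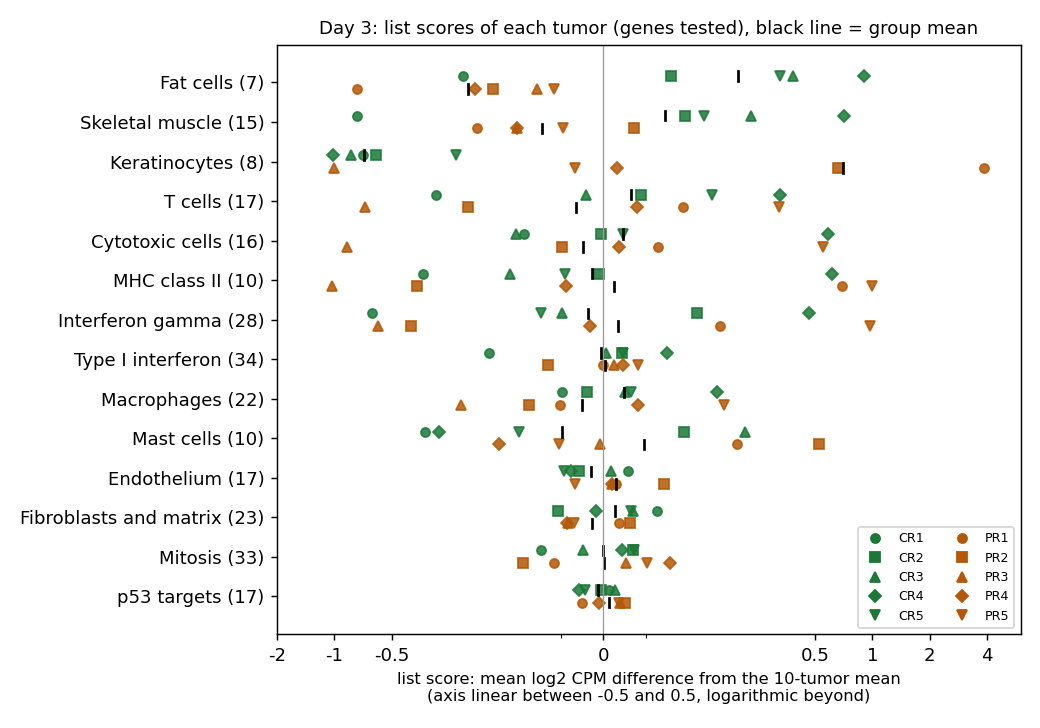
Scores of 14 gene lists in each tumor of day 3 (mean over the list's genes of the log2 CPM difference from the 10-tumor mean), 1 row per list with its number of tested genes, CR points in green, PR points in brown and group means as black lines. The axis is linear between -0.5 and 0.5 and logarithmic beyond. The CR and PR points overlap in every row, PR1 lies far to the right for keratinocytes, CR1 lies at the left for skeletal muscle, and PR1 for fat cells.

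Genes of the cell cycle and of the drug's damage had narrow intervals. All 33 mitosis genes and all 17 targets of p53, the DNA damage response factor, had intervals within a 1.5-fold difference, with medians of -0.013 and -0.028. Cdkn1a, the p53 target that stops the cell cycle, had a log2 fold change of -0.048 (95% interval -0.16 to 0.067), and Mki67, the proliferation marker, 0.0037 (-0.18 to 0.19). All 27 Fanconi and crosslink repair genes, which act on the lesions that CY makes, were bounded in the same way, with a median of 0.011. In the list of inflammasome and necroptosis genes Casp1 and Casp4, inflammatory caspases, were lower in CR at an unadjusted p under 0.05. Casp4 was at 98.2, 100.1, 96.3, 100.003 and 92.5 CPM in CR1 to CR5 and 114, 103, 101, 101 and 111 CPM in PR1 to PR5, all PR tumors above all CR tumors by a small margin (log2 fold change -0.12, SE 0.047, 95% interval -0.22 to -0.018). Casp1 overlapped between groups at 186 to 209.7 CPM in CR and 199.8 to 219.6 CPM in PR. In the TNF and NF-kB list Lif and Il6 (interleukin 6, log2 fold change -0.46 at 0.938 to 1.44 against 1.09 to 2.13 CPM) were lower at that level, and 23 genes had a median of -0.016. Bok, a member of the BCL2 family that promotes cell death, and P4ha2, a collagen hydroxylase of the hypoxia list, had log2 fold changes of -0.14 and 0.16, also at an unadjusted p under 0.05.

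Stroma and retinoid genes gave single members past an unadjusted p of 0.05. Fibroblast and matrix genes were higher in CR for 22 of 23 genes, but with a median of only 0.054 and 1 gene at that level, Mfap5, a microfibril protein (log2 fold change 0.14). Endothelial genes had a median of -0.071, with 2 of 17 higher in CR. In the retinoid list, Aldh1a3, which makes retinoic acid, was at 3.57, 3.73, 3.87, 2.65 and 5.53 CPM in CR1 to CR5 and 2.81, 1.898, 2.604, 3.35 and 2.41 CPM in PR1 to PR5. CR4 lay among the PR tumors (log2 fold change 0.57, SE 0.21, 95% interval 0.12 to 1.02). Dhrs3, which turns retinal back to retinol, was at 179.8 to 209 CPM in CR and 161 to 185 CPM in PR (log2 fold change 0.18, SE 0.060). The median of the 15 tested retinoid genes was -0.083. It was 0.036 in limma-voom with quality weights and 0.052 with PR1 and CR1 both left out, a setting chosen after seeing the data, and the direction also turned without CR1, without CR5 or without PR2.

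The same contrast was then read before CY and at day 7, in 1 model of all 46 tumors in 6 groups and 13194 genes. Day went together with tumor age and with the depth of the libraries, and 5 genes counted at 0 in all 26 tumors of day -1 were above 0 in all 20 later tumors, with 2 the other way. CPM in the comparison of days are scaled over all 46 tumors and so differ somewhat from those of the 10 tumors alone. Each difference between days below is a difference of contrasts made within a day. Across genes, which are not independent replicates, the log2 fold changes of day 3 correlated with those of day -1 at a Pearson r of -0.18 and a Spearman rho of 0.086, and with those of day 7 at -0.33 and -0.040. The same sign was found for 55.6% and 48.6% of genes. Pearson r, unlike the rank-based rho, gives most weight to genes of very large fold change. Keratinocyte genes were such a set, with a median of -5.74 at day 3 against 0.81 at day -1 and 0.86 at day 7. Their part in the negative r was not tested. No difference between day 3 and day -1 was called by edgeR's quasi-likelihood test (0%), with 461 genes (3.49%) at an unadjusted p under 0.05, and none between day 3 and day 7 (0%), with 600 genes (4.55%) at that level. DESeq2 called 3 and 14 genes in these tests, and limma-voom with quality weights 0 and 1.

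Among the immune lists, that of MHC class II had the highest share of genes with a difference between day -1 and day 3 at an unadjusted p under 0.05. In the model of 46 tumors their median log2 fold change was 0.64 at day -1, -0.24 at day 3 and -0.23 at day 7. For 7 of the 10 genes the difference between day 3 and day -1 had an unadjusted p under 0.05, all lower at day 3, against 3.49% of all genes, and 0 of 10 did so between day 3 and day 7. Cd74 was at 1096 ± 459 CPM (SD, n = 13) in CR and 694 ± 294 CPM (SD, n = 13) in PR at day -1. At day 3 it was at 529 ± 207 CPM (SD, n = 5) in CR and 626 ± 408 CPM (SD, n = 5) in PR. The contrast of day 3 minus that of day -1 was -0.90 on the log2 scale (95% interval -1.78 to -0.025). H2-Ab1, a beta chain of class II, had a difference of -1.04 (-1.95 to -0.13), with an adjusted p of 0.99998 in edgeR's quasi-likelihood test. The class II genes are expressed together in the same cells, so the 7 genes are not 7 independent observations. The count also hung on single tumors: it was 7 in DESeq2 and 8 in limma-voom with quality weights, but 1 of 11 tested genes without PR5, without PR1 or without CR3, 2 without CR1 or without CR5, and up to 9 without others, while the median difference stayed between -1.04 and -0.57. By day 7 the levels themselves were higher in both groups, with Cd74 at 13118 ± 4705 CPM (SD, n = 5) in CR and 15671 ± 1892 CPM (SD, n = 5) in PR.

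**Figure D4:**
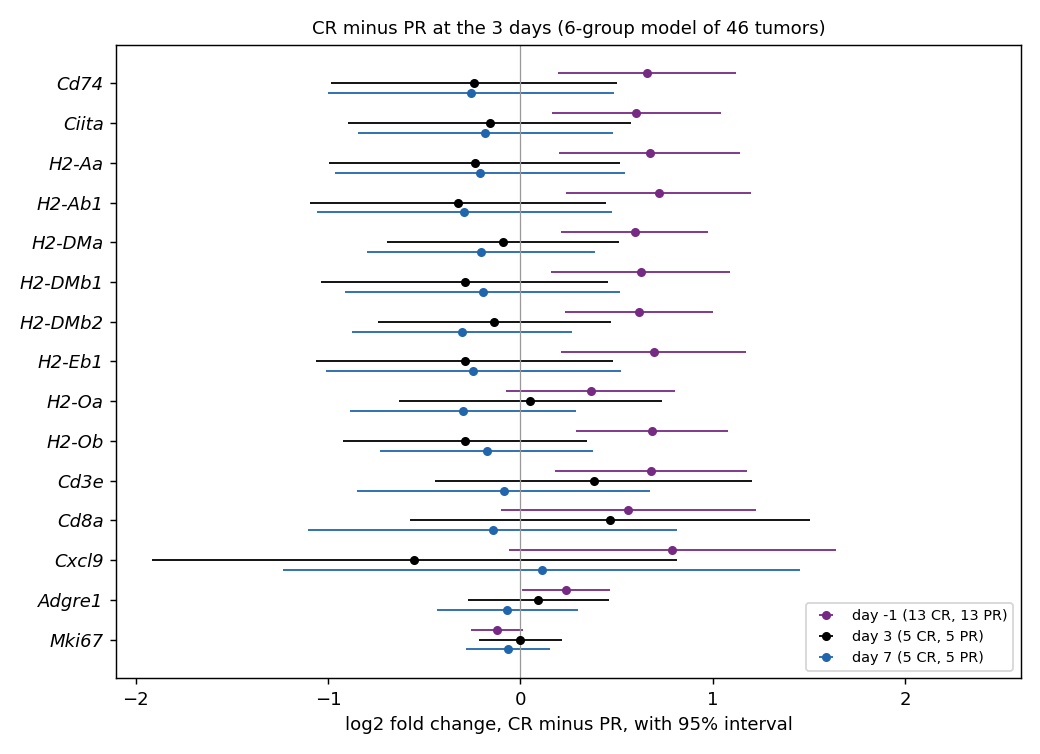
Log2 fold change of CR against PR with its 95% interval (horizontal axis) for the 10 tested MHC class II genes and, for comparison, Cd3e, Cd8a, Cxcl9, Adgre1 and Mki67 at day -1 (purple), day 3 (black) and day 7 (blue), from the model of 46 tumors. At day -1 all 10 class II estimates lie above 0, and at day 3 only that of H2-Oa does, with intervals that cross 0 at day 3 and at day 7.

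In the other immune lists described here few genes differed between days. T cell genes had a median of 0.55 at day -1, 0.084 at day 3 and -0.14 at day 7, and 1 of 17 genes (Cd5, a brake on receptor signalling, named after its value was seen) had a difference between day 3 and day -1 at an unadjusted p under 0.05. Cytotoxic genes had medians of 0.56, 0.027 and -0.19, and 0 of 17 genes differed at that level. Interferon gamma targets had medians of 0.54, -0.13 and 0.083, again with 0 of 28. For natural killer genes they were 0.64, 0.13 and -0.15, with 1 of 8, Klra9, a Ly49 receptor of a family with similar copies. Type I interferon genes were at 0.13, -0.0032 and 0.30, with 0 of 34 genes differing from day 3 in either test. In the TNF and NF-kB list, 3 of 23 genes differed between day 3 and day -1 at that level, all lower at day 3, and the difference between day 3 and day -1 was -0.81 on the log2 scale for Cxcl1, a chemokine for neutrophils, and -0.88 for Il6. The other was Cxcl2, a related chemokine, named after its value was seen.

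The tissue genes did not share 1 course. Fat cell genes had a median of 0.36 at day -1, 0.77 at day 3 and 0.20 at day 7, and skeletal muscle genes 0.53, 0.34 and 0.023, with 0 genes of either list differing between days at an unadjusted p under 0.05. Keratinocyte genes had medians of 0.81, -5.74 and 0.86, and 18 and 17 of 21 genes differed from day -1 and from day 7 at that level, all lower at day 3. Without PR1 these counts were 2 and 4 of 21, and in limma-voom with quality weights 0 and 1. On the lower side of the difference from day -1, the 5 with the smallest p were Cstdc5, Klk8, Il1f5, Cnfn and Casp14. Il1f5, Cnfn and Casp14 are genes of the outer epidermis, and at day 7 their medians were at most 0.0576 CPM in either group. Cstdc5 and Klk8 went another way at day 7. Cstdc5 was at 9.97 to 69.1 CPM in CR and 7.55 to 36.1 CPM in PR, and Klk8 at 3.22 to 7.25 and 3.98 to 7.80 CPM. Il1f5, an antagonist of the interleukin 36 receptor, had 0 counts in all 5 CR tumors and reached 11.7 CPM in PR at day 3, and its median was 0 CPM in both groups at day -1. The higher side was led by Invs, whose contrast was -0.030 at day -1 and 0.19 at day 3, followed by Olfr889, an olfactory receptor gene, Cmah, which makes the sialic acid Neu5Gc, Ccdc78 and Iws1, a transcription elongation factor.

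Against day 7 the named genes of the lower side included several skin genes, and those of the higher side were not skin genes. Ereg, epiregulin, a ligand of the epidermal growth factor receptor, was at 21.2 to 30.3 CPM in CR and 24.5 to 31.6 CPM in PR at day 3, and at 2.97 to 11.5 CPM in CR and 2.104 to 3.801 CPM in PR at day 7. The contrast was -0.16 at day 3 and 1.09 at day 7, a difference of -1.26 (95% interval -1.86 to -0.66) with an adjusted p of 0.329 in edgeR's quasi-likelihood test and of 0.0230 in DESeq2. Lower at day 3 relative to day 7 were also Ikzf5, a zinc finger factor of the Ikaros family (-0.33), and the skin genes Fam25c, Lce1m and Lce1a1. Ikzf5 was also called in DESeq2, with an adjusted p of 0.0987. On the higher side stood Cideb, which acts on lipid droplets, with a difference of 1.83, Cerk, ceramide kinase (0.41), Kbtbd12 (1.74), the lysosomal pump Atp13a2 (0.48) and Cotl1, which binds actin (0.43). Cotl1 was at 221 to 245 CPM in CR and 184 to 257 CPM in PR at day 3 and at 388 to 712 and 621 to 799.7 CPM at day 7. None of these differences passed the adjustment in edgeR's quasi-likelihood test.

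The 3 genes that DESeq2 called at day 3 lie at the ends of the X and Y chromosomes, 1 of them inside the leading gene Mid1, and they were singled out after their values were seen. Mid1, which encodes a microtubule-associated ubiquitin ligase and in the mouse crosses the edge of the region that X and Y share (chrX:169685199-170005736), was at 264, 409.5, 190.1, 229 and 255 CPM in CR1 to CR5 and 215, 196, 139, 143 and 144 CPM in PR1 to PR5. CR3 lay below PR1 and PR2 (log2 fold change 0.69, SE 0.19, 95% interval 0.27 to 1.10). G530011O06Rik (chrX:169975043-169978917), a non-coding transcript on the other strand inside Mid1, was at 15.2, 32.8, 18.8, 20.2 and 19.5 CPM in CR1 to CR5 and 13.2, 12.5, 8.84, 9.58 and 8.65 CPM in PR1 to PR5 and did not overlap between groups. Its log2 fold change was 1.01 in edgeR and 1.01 in DESeq2, with an adjusted p of 0.00418 in DESeq2. Gm21860 (chrY:90754513-90754821), a predicted protein-coding gene, was at 25.7 to 48.7 CPM in CR and 14.7 to 22.8 CPM in PR, with no overlap (log2 fold change 0.81 in edgeR, adjusted p 0.0502 in DESeq2). Gm21742 (chrY:90837413-90844040), a pseudogene, was at 1.24 to 3.04 CPM in CR and 0.117 to 0.9203 CPM in PR, also with no overlap (log2 fold change 2.15 in edgeR, adjusted p 0.00967 in DESeq2). Sequences there are near copies of each other on X and Y, and overlap on opposite strands, so the share of reads that belongs to each gene is uncertain.

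The direction at these loci was not the same at day 7. The log2 fold change at day 7 was -0.72 for Mid1, -0.40 for G530011O06Rik, -0.63 for Gm21860 and -1.18 for Gm21742. At day -1 it was 0.058, 0.23, 0.43 and -0.10 in the same order. The difference between day 3 and day 7 was 1.44 for Gm21860 (95% interval 0.77 to 2.10), with an adjusted p of 0.329 in edgeR's quasi-likelihood test and 0.0230 in DESeq2. For Gm21742 it was 3.32, with an adjusted p of 0.397 in edgeR's quasi-likelihood test and 0.0552 in DESeq2. Of the 9 tested genes in this part of X and Y, all were higher in CR at day 3, as were 5837 of all 11839 tested genes. The 3 that did not overlap between groups were the same 3 that DESeq2 called. Over all genes, 0.22% had every CR tumor above every PR tumor. This part was chosen after the values were seen, and its sequences overlap or are near copies, so the 9 genes are not independent observations.

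**Figure D5:**
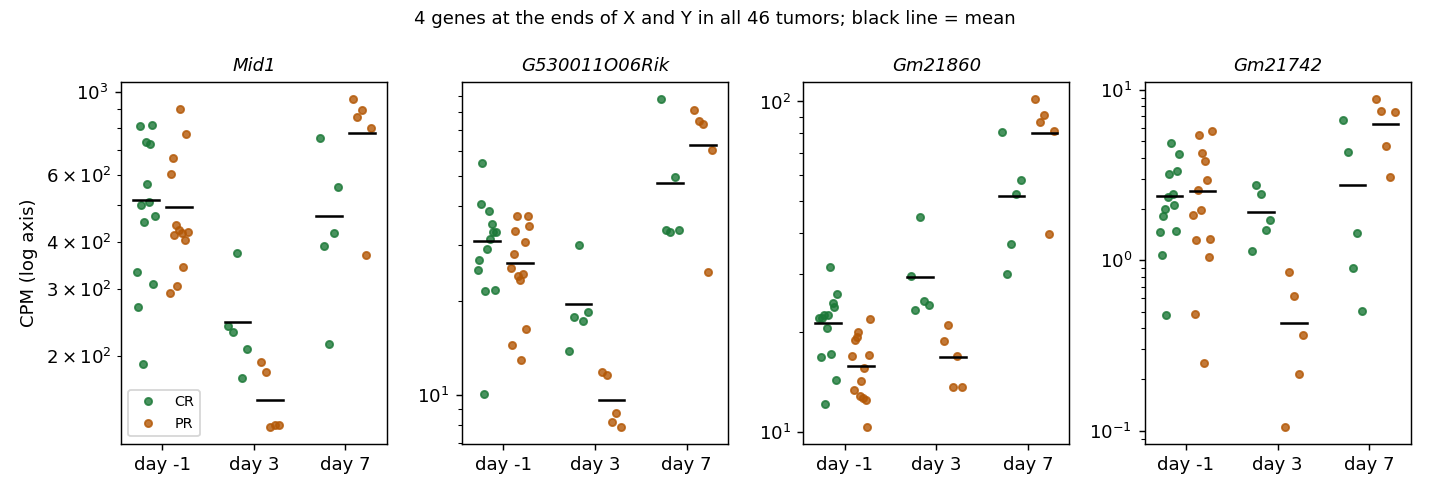
Levels of Mid1, G530011O06Rik, Gm21860 and Gm21742 in each of the 46 tumors (CPM scaled over the 46 tumors, log axis) by day after CY and response, 1 point per tumor, CR green and PR brown, with group means as black lines. At day 3 the CR tumors lie above the PR tumors for all but Mid1, where CR3 lies below PR1 and PR2, and at day 7 the CR means lie below the PR means while points overlap.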

How the data were processed

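RNA of 46 AB1-HA tumors was sequenced, 1 library per tumor, and the 10 tumors of day 3 were compared by response. The authors deposited 1 table of counts per gene symbol, as whole numbers that were not normalized. Per the labels' processing notes and the study's methods they were made with kallisto, which assigns reads to transcripts without full alignment and divides reads between similar transcripts, on GRCm38.p6 (version of kallisto not given in the sources used here). How transcripts were summed, whether strand was used and how estimates were rounded were not given there either. The table has 46012 rows, of which 1 (Pax7) is incomplete, and 13 carry a date in place of a symbol.

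Counts were analysed in R 4.3.3 with edgeR 4.0.16: the default filter on low counts, TMM normalisation, and the quasi-likelihood test with 1 coefficient per group, called at an FDR of 0.1 as in the study's methods, which used DESeq2. Standard errors were worked back from the F statistic of the same test, and 95% intervals were set symmetrically around the log2 fold change. Both are approximate for genes near 0 counts in 1 group. CPM use the normalised library sizes, and principal components used log2 CPM with a prior count of 2. Differences between days are contrasts of the 6-group model. The alternatives were DESeq2 1.42.0, limma-voom (limma 3.58.1), other normalisations, filters and sample sets, and list scores as covariates. Figures were drawn with matplotlib 3.10.9. Depth limits genes of low count most, and intervals cover the spread between tumors.

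The genes named were, leaving out gene models, the 15 of smallest p on each side of the day 3 comparison, the defining genes and up to 4 others of each list, and the 5 of smallest p on each side of each test between days. The members and the gene lists were chosen with earlier results of these data known, so no pattern counts as independent support. Samples were grouped by the labels alone, and p-values measure the spread between tumors of separate mice.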

Additional observations from a re-analysis of the deposited data

Results flagged for a closer look

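Values of each group of 5 tumors were checked for a single tumor that lies far from the rest, by its gap to the nearest other tumor as a share of the group's range, with Dixon's critical value of 0.71. Of 166 groups tested, 7 (4.22%) passed, and chance flags about 1 in 20 groups.

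Among genes, PR1 was the highest PR tumor for Invs, with a gap of 0.796 of the range, and PR1 was also the highest for Cdsn, the corneodesmosin gene, with 0.748. PR5 was the highest PR tumor for Ckm, the muscle creatine kinase, with 0.770. CR3 was the lowest CR tumor for Fkbp5, with 0.782.

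Among list scores, CR4 was the highest CR tumor for the inflammasome and necroptosis genes, with 0.774, and CR2 was the lowest CR tumor for the genes of pericytes and smooth muscle, with 0.713. On principal component 1, which skin genes led, CR1 was the lowest CR tumor, with 0.864. Its keratinocyte score was nevertheless low, at -0.70 against 3.87 in PR1.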

How the results depend on the processing

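The edgeR fit of 10 tumors called 0 genes at day 3, with 256 at an unadjusted p under 0.05. DESeq2 called 3 genes. The count of genes at an unadjusted p under 0.05 was 917 without the filter on low counts, where 27391 genes were tested, 591 with the keratinocyte and skeletal muscle scores as covariates and 648 with the fat cell score as a covariate, with 0 genes called in each. When tumors were left out in turn, 0 to 1 genes were called and 227 to 424 were at an unadjusted p under 0.05, the 1 call (Ckm) and the 424 both without CR1. The fat cell covariate, and a fit without PR1 and CR1, were chosen after seeing the data. Under covariates the direction turned for 4 skin genes, whose log2 fold change became 0.29 for Dsp, 0.019 for Krt10 and 0.59 for Cdsn with the keratinocyte and skeletal muscle scores, and 0.18 for Krt15, 0.55 for Dsp and 0.78 for Cdsn with the fat cell score. Krt10 is itself in the keratinocyte list, so that score was made partly from Krt10 and its value there is no separate result. Dsp and Cdsn are in none of the lists. The cause of their turn was not tested, nor that of Krt15. Of 654 values of the 30 leading genes under alternatives, these 6 turned, 1 came to pass the test (Ckm) and 647 kept direction and side of the threshold.

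The difference between day 3 and day -1 gave 3 calls in DESeq2, all gene models. That between day 3 and day 7 gave 14 in DESeq2 and 1 in limma-voom with quality weights (Gm10221). Both gave 0 in edgeR's quasi-likelihood test. The log2 differences of the 3 calls were -22.1, -22.3 and -23.2, and the 14 reached -45.5, too far from 0 to be read as sizes of a change. Also among the 14 were Dmkn and Krt10, skin genes for which PR1 was the highest tumor of day 3. Leaving out tumors of day 3 in turn gave 0 calls in both tests. The exact permutation p of component 3, not adjusted over the components, ran from 0.0159 without PR5 to 0.651 without PR1. No paired analysis was possible because each mouse gave 1 sequenced tumor and the title numbers are not shared between CR and PR of day 3.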
